A study of Homo sapiens with 40 samples.

Results

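The genes described here are 4 aldo-keto reductases (AKR1C1, AKR1C2, AKR1C3 and AKR1B10) and 6 other targets of the transcription factor NRF2 (NQO1, HMOX1, GCLM, TXNRD1, SRXN1 and SLC7A11). They were chosen by name, with earlier results of these data known. All 10 were found among the 60664 genes of the count table, each under 1 Ensembl identifier. All 10 passed the filter on low counts that left 22527 genes for testing. Their mRNA was followed in 786-0 cells, an established line of clear cell renal cell carcinoma, through 20 groups of line, treatment and day.

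The study sequenced total RNA from a 786-0 line labelled SETD2 WT and from one labelled SETD2 KO, called WT and KO below. SETD2 is the histone methyltransferase that places the trimethyl mark on lysine 36 of histone H3. In each line cells were untreated at day 0, or had received DAC (decitabine, an inhibitor of DNA methyltransferases) at 100 nM, BMN (a PARP inhibitor, read here as BMN673 or talazoparib because the submitters spell it in more than one way) at 10 nM, or the combination of both, and were taken at days 5, 16 and 26. The 10 groups of the WT line and the 10 of the KO line held 2 libraries each, 40 in all, with 17833960 to 22631101 counts per library.

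These groups have limits as a model. KO and WT are 1 line each, so a difference between them cannot be told apart from other differences between those lines. The untreated samples used here are all from day 0, so treatment and time in culture cannot be told apart in any comparison with them. All 9 such comparisons of a line share the same 2 untreated libraries. The labels do not say whether the replicates came from separate cultures, so the p-values measure the spread between these libraries, which may be technical. In bulk RNA, fewer cells that express a gene and less of its RNA per cell cannot be told apart.

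NRF2, encoded by NFE2L2, is held at low levels by KEAP1, which hands it to a ubiquitin ligase. When reactive electrophiles or oxidants modify KEAP1, NRF2 accumulates, pairs with small MAF proteins and binds antioxidant response elements of its target genes. BACH1 occupies many of the same elements as a repressor, most plainly at HMOX1. The aldo-keto reductases use NADPH to reduce aldehydes and ketones, steroids and prostaglandins among them for the AKR1C enzymes. The other members make glutathione, recycle thioredoxin, import cystine, break down haem or reduce quinones.

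The AKR1C genes lie side by side on chromosome 10 of GRCh38: AKR1C1 (ENSG00000187134) at chr10:4963253-4983283, AKR1C2 (ENSG00000151632) at chr10:4987400-5018031 on the minus strand and AKR1C3 (ENSG00000196139) at chr10:5035354-5107686. They are near copies of one another, and a stretch of their reference coding sequence, bases 103 to 162 counted from the start codon, is printed because it bears on what the counts can tell. It is the 60-base stretch at which AKR1C1 and AKR1C2 differ most, holding 10 of their 19 differences, and AKR1C3 differs from AKR1C1 at 7 positions there. Capitals mark the 15 positions at which the 3 genes are not all alike.
AKR1C1: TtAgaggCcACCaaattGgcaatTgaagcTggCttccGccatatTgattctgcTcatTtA
AKR1C2: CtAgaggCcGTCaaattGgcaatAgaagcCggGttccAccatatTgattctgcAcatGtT
AKR1C3: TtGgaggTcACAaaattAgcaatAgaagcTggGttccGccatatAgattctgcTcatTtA
Over all 969 coding bases AKR1C1 and AKR1C2 differ at 19 (98.04% identity) and share an identical run of 186 bases, whereas AKR1C1 and AKR1C3 are 91.9% identical. Reads with a mapping quality under 20 were not counted, so reads that fit several of these genes equally well are missing from all of them. AKR1C2 and AKR1C3 are 91.2% identical and share a run of 171 bases. The levels of all 3 genes are therefore uncertain. AKR1B10, on chromosome 7, has a near copy in AKR1B15: over the last 800 coding bases they are 95.4% identical, with a shared run of 116 bases, so its level is uncertain too.

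Promoter windows (250 bases before to 50 after a RefSeq transcript start, GRCh38.p14) were at hand for 7 of the 10 members, with 2 windows each for AKR1C3 and TXNRD1. The core of the antioxidant response element, TGACNNNGC, was searched on both strands, and 13.35% of all 35114 windows held it. GCLM and TXNRD1 held it. Their matches are printed in capitals with 10 bases on each side, in the orientation of the gene, to show the element that the family is known for. A capital run that begins with GC is a match on the opposite strand.
GCLM, chr1:93909446-93909474, minus strand: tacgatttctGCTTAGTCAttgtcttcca
TXNRD1, chr12:104215670-104215698, plus strand: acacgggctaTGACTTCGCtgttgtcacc
TXNRD1, chr12:104215761-104215789, plus strand: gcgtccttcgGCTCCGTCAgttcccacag
TXNRD1, chr12:104286920-104286948, plus strand: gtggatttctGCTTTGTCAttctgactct
The windows of AKR1C1, AKR1C2, AKR1C3, NQO1 and SRXN1 did not hold these letters, which describes these windows and no more. The windows also differed in CpG, the dinucleotide that DNA methyltransferases act on. AKR1C3 had 0 CpG in both windows and AKR1C1 and AKR1C2 had 3 each. NQO1 had 14, GCLM 41, SRXN1 46, and the windows of TXNRD1 27 and 12. Over all 35114 windows the median was 14, with quartiles of 4 and 28.

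Levels are given as CPM, counts per 1000000 of a library's counts after TMM scaling. Per kilobase of exon, averaged over the 40 libraries, TXNRD1 was highest at 81.3 CPM per kb, then NQO1 at 53.4, GCLM at 13.5, SLC7A11 at 7.97, HMOX1 at 6.73 and AKR1B10 at 2.17. The AKR1C genes were low, at 0.628 CPM per kb for AKR1C3, 0.1404 for AKR1C1 and 0.0240 for AKR1C2. SRXN1 stood at 0.829 CPM per kb, but 90.7% of its exon bases overlap a second gene model on the same strand (ENSG00000270299, with 0 counts in all 40 libraries). Over the 236 bases that are its own, SRXN1 came to 8.88 CPM per kb, so its place in this order depends on that overlap. Exon bases are summed over all annotated transcripts, which lowers the value of genes with many long, rarely used exons.

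Differences between groups are log2 ratios with a standard error, from edgeR's quasi-likelihood test over all 40 libraries. A member passed where its p, adjusted by Benjamini-Hochberg over all 22527 genes of that comparison, was below 0.05. Beside each count of members stands the percentage of all genes tested that passed in that direction. Under DAC in WT, against untreated cells, 1 member was higher (15.6% of genes) and 1 lower (12.2%) at day 5, 1 higher (18.6%) and 5 lower (14.9%) at day 16, and 2 higher (18.7%) and 2 lower (13.2%) at day 26. Under the combination in WT, 1 was higher (21.2%) and 3 lower (18.2%) at day 5, 2 higher (22.8%) and 4 lower (20.1%) at day 16, and 3 higher (22.4%) and 2 lower (18.7%) at day 26. Under BMN in WT, 0 members passed at days 5 and 16 in edgeR, where 0.186% and 0.684% of all genes passed in either direction. At an unadjusted p under 0.05 there were 1 and 4 members (6.65% and 18.7% of all genes), and DESeq2 called 0 and 2 (0.311% and 4.38%). At day 26 of BMN 1 member was higher (12% of genes) and 2 lower (11%).

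Under DAC in KO, 3 members were higher (19.5% of genes) and 2 lower (16%) at day 5, 2 higher (19.9%) and 4 lower (17.8%) at day 16, and 1 higher (26.3%) and 4 lower (20.9%) at day 26. Under BMN in KO, 1 was higher (5.07%) and 2 lower (6.65%) at day 5, 1 higher (10.3%) and 3 lower (15.2%) at day 16, and 5 higher (15.6%) and 2 lower (17.5%) at day 26. Under the combination in KO, 2 were higher (27.1%) and 2 lower (22.2%) at day 5, 2 higher (23.1%) and 4 lower (19.5%) at day 16, and 5 higher (20.4%) and 1 lower (14.3%) at day 26. The members stood furthest from the background of all genes at day 16 of DAC in WT, with 5 of 10 lower, and at day 26 of BMN in KO, with 5 of 10 higher. These 2 were picked as the extremes of all such comparisons, for members chosen with earlier results of these data known. The distance is therefore a description and was not tested. The calls of AKR1B10, GCLM and SLC7A11 in the first, and of HMOX1 in the second, did not hold without every single library, as given below. At day 16 of DAC the median member stood at -0.34 in WT and -0.41 in KO on the log2 scale, and the median of all genes at 0.03 and 0.04. At day 26 of DAC in KO the median of all genes was itself 0.11, so member values of that comparison are relative to a shifted centre. The members did not move as a block: at day 16 of DAC and of the combination, in both lines, NQO1 was higher while AKR1C3, AKR1B10, TXNRD1 and SLC7A11 were lower.

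**Figure D1:**
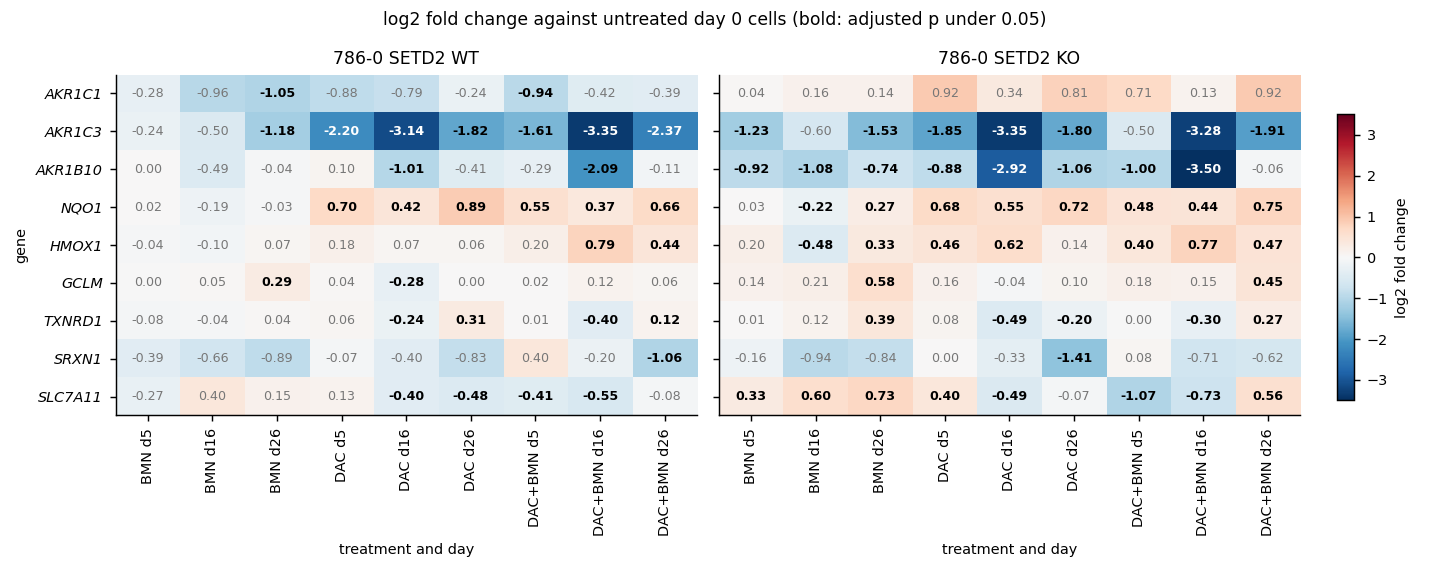
Heat map of the log2 change of 9 members (rows) against untreated cells of the same line in the 18 groups of line, treatment and day (columns), with values in bold where the adjusted p was below 0.05. AKR1C2 is left out because of its low counts; NQO1 is positive under DAC and the combination, while AKR1C3 and AKR1B10 are most negative at day 16 of DAC or the combination.

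AKR1C3, the type 5 17-beta-hydroxysteroid dehydrogenase that also acts on prostaglandins, had group means that spanned 33.96-fold over the 20 groups, more than those of the other 8 members for which a fold is given. In untreated WT cells it stood at 9.93 and 7.92 CPM, and the 12 WT libraries with DAC or the combination lay between 0.602 and 2.93 CPM. No library of those groups reached the untreated ones. Under DAC it stood at 1.94 ± 0.0438 CPM (SD, n = 2) at day 5, 1.01 ± 0.183 at day 16 and 2.52 ± 0.268 at day 26. The log2 changes were -2.20 ± 0.24 (SE), -3.14 ± 0.26 and -1.82 ± 0.23, with adjusted p of 4.82e-09, 6.6e-12 and 8.57e-08. The combination gave -1.61 ± 0.23, -3.35 ± 0.27 and -2.37 ± 0.24 on the same days, with adjusted p of 5.24e-07, 2.12e-12 and 5.63e-10. Under BMN alone the 6 WT libraries spanned 3.88 to 7.73 CPM, below both untreated libraries, and the change passed at day 26 (-1.18 ± 0.22, adjusted p = 0.00019).

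In KO cells AKR1C3 started lower, at 2.59 and 2.92 CPM, and fell from there. Under DAC it stood at 0.756 ± 0.137, 0.263 ± 0.0613 and 0.790 ± 0.535 CPM at days 5, 16 and 26. The day 26 libraries were far apart, at 0.412 and 1.17 CPM. The log2 changes were -1.85 ± 0.32, -3.35 ± 0.39 and -1.80 ± 0.31, with adjusted p of 1.68e-05, 1.22e-08 and 1.51e-05. The combination gave -3.28 ± 0.39 at day 16 and -1.91 ± 0.32 at day 26 (adjusted p = 2.02e-08 and 1.52e-05), but -0.50 at day 5, where the libraries read 1.49 and 2.40 CPM and the change did not pass. BMN gave -1.53 ± 0.30 at day 26 (adjusted p = 0.000143). At day 5 it gave -1.23 ± 0.29 (adjusted p = 0.00535), which no longer passed without the BMN day 5 replicate 1 (adjusted p = 0.0939). In all, AKR1C3 was lower in 14 of its 18 comparisons with untreated cells, 7 in each line. The KO libraries at day 16 of DAC and the combination hold 4 to 6 counts of AKR1C3 each, so their level is known to within counting error of that size.

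**Figure D2:**
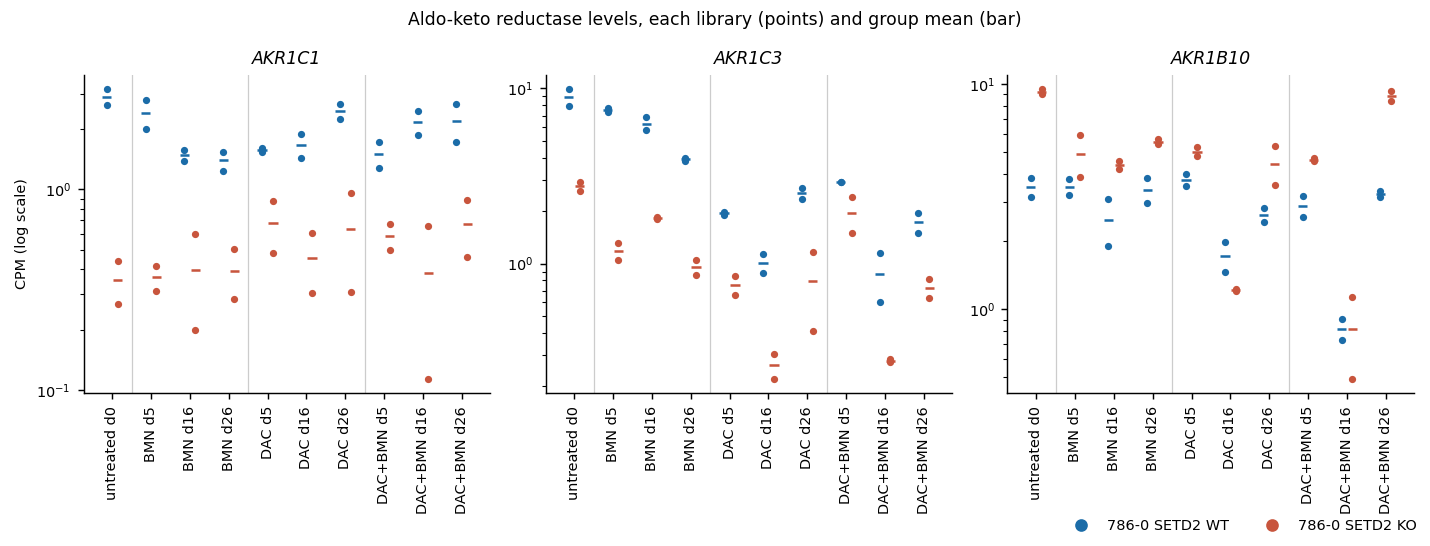
CPM of AKR1C3, AKR1C1 and AKR1B10 (log axis) in each of the 40 libraries, by treatment and day, with WT and KO in separate colours and points for single libraries. AKR1C3 drops from 7.92 to 9.93 CPM in untreated WT cells to 0.602 to 2.93 under DAC and the combination, and AKR1B10 is lowest at day 16 of DAC or the combination.

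AKR1C1, which reduces progesterone, was separated by line in all 40 libraries. All 20 WT libraries (1.24 to 3.16 CPM, 24 to 61 counts) lay above all 20 KO libraries (0.114 to 0.956 CPM, 2 to 18 counts). Among WT groups the means ran from 1.39 CPM (BMN, day 26) to 2.89 (untreated). It passed against untreated WT cells under BMN at day 26 (-1.05 ± 0.38, adjusted p = 0.0432) and under the combination at day 5 (-0.94 ± 0.38, adjusted p = 0.045). The first call was lost without BMN replicate 1 (adjusted p = 0.114), BMN replicate 2 (0.177) or untreated replicate 2 (0.23), and the second without any 1 of its 4 libraries (0.0605 to 0.246). AKR1C2, its near copy, had 0 to 12 counts in WT libraries and 0 to 3 in KO libraries. Its counts summed to 105 over the 20 WT libraries and to 20 over the 20 KO libraries, and all 20 KO libraries held 3 counts or fewer, so no fold is given.

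AKR1B10 (ENSG00000198074, chr7:134527567-134541412), which reduces retinaldehyde and lipid aldehydes, went the other way between the lines and dipped under treatment. Untreated WT cells had 3.83 and 3.16 CPM. The WT level fell at day 16 of the combination, to 0.731 and 0.903 CPM (-2.09 ± 0.30, adjusted p = 6.75e-07), and was 3.36 and 3.14 CPM at day 26. At day 16 of DAC alone it was 1.99 and 1.47 CPM (-1.01 ± 0.26, adjusted p = 0.00244), a call lost without the second DAC day 16 library (adjusted p = 0.056). The other 7 WT comparisons did not pass. Untreated KO cells had 9.50 and 8.98 CPM, and 8 of 9 KO comparisons were lower. DAC gave 5.003, 1.22 and 4.43 CPM at days 5, 16 and 26 (log2 -0.88 ± 0.21, -2.92 ± 0.26 and -1.06 ± 0.21). BMN gave 4.90, 4.38 and 5.54 CPM, with adjusted p of 0.00375, 0.000433 and 0.0051, the first of them lost without the BMN day 5 replicate 1 (adjusted p = 0.147). Under the combination the KO level was 4.61 CPM at day 5, 0.491 and 1.14 in the day 16 libraries (-3.504 ± 0.28, adjusted p = 2.05e-12), and 9.35 and 8.41 in the day 26 libraries. The last of these overlap the untreated range (-0.06).

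NQO1 (ENSG00000181019, chr16:69706996-69726668), the quinone reductase that is the usual reporter of NRF2 activity, was higher under DAC and under the combination in both lines at every day. Untreated WT cells had 121 and 132 CPM, and the 12 WT libraries with DAC or the combination had 161 to 236 CPM. Untreated KO cells had 112 and 119 CPM, and the corresponding 12 KO libraries had 156 to 198 CPM. None of those 24 libraries overlapped the untreated range of its line. DAC changed it by 0.70 ± 0.06, 0.42 ± 0.06 and 0.89 ± 0.06 on the log2 scale in WT (adjusted p = 8.73e-12, 3.29e-07 and 1.3e-14) and by 0.68, 0.55 and 0.72 in KO (adjusted p = 1.15e-11, 1.25e-09 and 2.61e-12). The combination gave 0.55, 0.37 and 0.66 in WT and 0.48, 0.44 and 0.75 in KO. All 12 calls held without any 1 library. BMN alone left WT cells at 108 to 131 CPM, with no call. In KO cells it gave 139 ± 1.86 CPM at day 26 (0.27 ± 0.06, adjusted p = 0.000434) and 98.6 ± 0.804 at day 16 (-0.22 ± 0.06, adjusted p = 0.00486), the latter lost without the second untreated KO library (adjusted p = 0.079).

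HMOX1 (ENSG00000100292, chr22:35380361-35394214), which opens the haem ring and is the classical BACH1 target, rose most under the combination at day 16. Untreated WT cells had 14.97 and 18.7 CPM, and the WT combination had 29.8 and 28.3 CPM at day 16 (0.79 ± 0.11, adjusted p = 5.54e-07). The WT combination stood at 22.8 ± 0.461 CPM at day 26 (0.44 ± 0.11, adjusted p = 0.0022), a call lost without the first untreated WT library (adjusted p = 0.0883). WT cells under DAC alone read 16.35 to 19.97 CPM and under BMN 15.02 to 18.86 CPM, and none of these 6 comparisons passed. Untreated KO cells had 9.88 and 8.98 CPM, and all 12 KO libraries with DAC or the combination were higher, from 10.03 to 17.08 CPM. In KO cells the day 16 changes were 0.62 ± 0.13 under DAC (adjusted p = 0.000173) and 0.77 ± 0.13 under the combination (adjusted p = 5.96e-06), and both held without any 1 library. The KO calls at day 5 of DAC, days 5 and 26 of the combination and day 26 of BMN were lost without the second untreated KO library (adjusted p = 0.0552, 0.0908, 0.059 and 0.239). That at day 16 of BMN, where HMOX1 was lower (-0.48 ± 0.14), was lost without the first untreated KO library (adjusted p = 0.0835) or BMN replicate 1 (0.0695). Combination day 5 replicate 2, combination day 26 replicate 1 and each of the BMN day 26 libraries also decided their call. The call at day 26 of BMN was lost without the first untreated KO library as well. It was also lost with DESeq2, without the filter on low counts and with KO libraries alone. The KO call at day 5 of the combination was lost without that filter too.

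**Figure D3:**
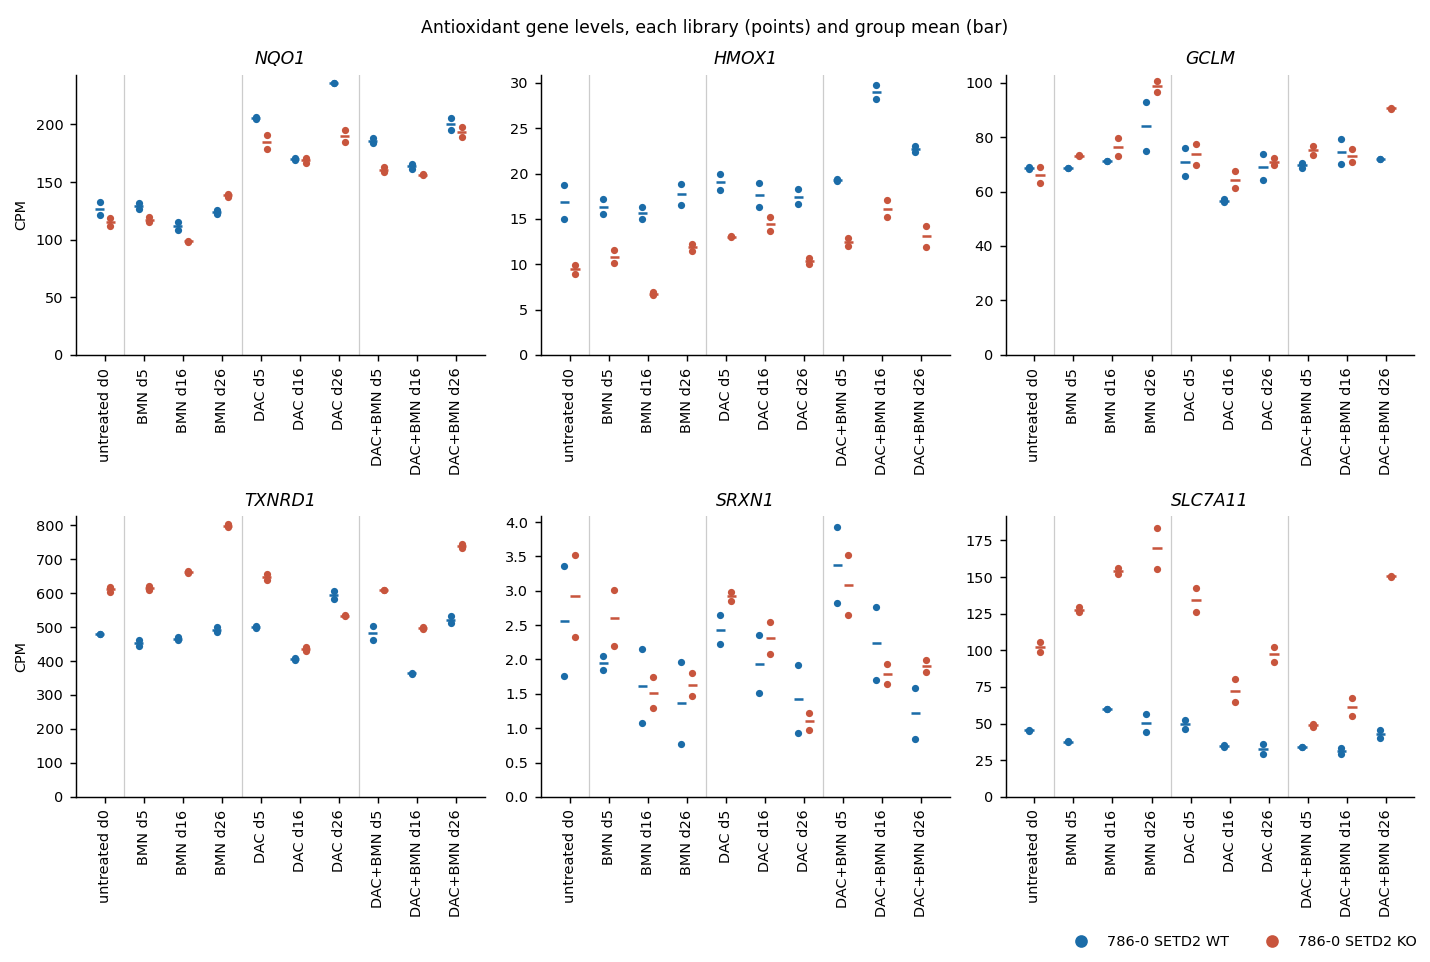
CPM of NQO1, HMOX1, GCLM, TXNRD1, SRXN1 and SLC7A11 (linear axes from 0) in each of the 40 libraries, by treatment and day, with WT and KO in separate colours. NQO1 lies at 156 to 236 CPM under DAC and the combination against 112 to 132 in untreated cells, and SLC7A11 is higher in KO than in WT in each pair of matched groups.

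TXNRD1 (ENSG00000198431, chr12:104215779-104350307), the selenoenzyme that keeps thioredoxin reduced, changed by small amounts that its tight replicates resolved. Untreated WT cells had 479 CPM in both libraries, and untreated KO cells 618 and 603 CPM. At day 16 it was lower under DAC and the combination in both lines: 407 and 364 CPM in WT and 435 and 497 CPM in KO, as means of 2 libraries. The log2 changes were -0.24 ± 0.05 and -0.40 ± 0.05 in WT (adjusted p = 0.000123 and 1.25e-08) and -0.49 ± 0.05 and -0.30 ± 0.05 in KO (adjusted p = 1.71e-10 and 3.25e-06). At day 26 it was above untreated cells under DAC in WT (594 ± 17.7 CPM, log2 0.31 ± 0.05), under the combination in KO (738 ± 8.22 CPM, log2 0.27 ± 0.05) and under BMN in KO (799 ± 7.05 CPM, log2 0.39 ± 0.05). It was below them under DAC in KO (534 ± 3.04 CPM, log2 -0.20 ± 0.05). The WT combination at day 26 (0.12 ± 0.05, adjusted p = 0.0325) lost its call without combination replicate 1 (adjusted p = 0.23) or either untreated library (0.0785 and 0.095).

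GCLM (ENSG00000023909, chr1:93885199-93909456), the modifier subunit of the enzyme that starts glutathione synthesis, had the narrowest range of group means of the 9 members for which one is given, 1.74-fold. They ran from 56.6 CPM (WT, DAC day 16) to 98.7 CPM (KO, BMN day 26). Against untreated cells, the calls that held without any 1 library were both in KO cells at day 26. BMN gave 98.7 ± 2.81 CPM against 66.1 ± 4.07 in untreated cells (0.58 ± 0.09, adjusted p = 3.71e-06), and the combination 90.6 ± 0.268 CPM (0.45 ± 0.09, adjusted p = 0.000108). In WT the rise under BMN at day 26 (92.76 and 75.04 CPM) and the fall under DAC at day 16 (57.2 and 56.0 CPM) passed but were lost without the first BMN library (adjusted p = 0.456), without the second untreated library (adjusted p = 0.0941), or without the second DAC library (adjusted p = 0.0737).

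SRXN1 (ENSG00000271303, chr20:646615-653200), which repairs overoxidised peroxiredoxins, had 0.772 to 3.93 CPM in the 40 libraries, and its replicates differed by up to 1.24 on the log2 scale. It passed as lower under DAC at day 26 in KO (-1.41 ± 0.40, adjusted p = 0.00459) and under the combination at day 26 in WT (-1.06 ± 0.39, adjusted p = 0.0285). The first was lost without DAC replicate 1 (adjusted p = 0.051) or untreated KO replicate 2 (0.087), and the second without combination replicate 1 (0.267) or untreated WT replicate 2 (0.449). With most of its exons shared with another gene model, these values describe a small part of the transcript.

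SLC7A11 (ENSG00000151012, chr4:138164097-138242349), the cystine-importing subunit of system xc-, differed in level between the lines. Untreated WT cells had 45.8 and 45.2 CPM, and untreated KO cells 98.5 and 105 CPM. In WT it was lower under DAC at day 26 (36.2 and 29.03 CPM, log2 -0.48 ± 0.12, adjusted p = 0.00162), under the combination at day 5 (34.4 and 34.0 CPM, -0.41 ± 0.12, adjusted p = 0.00491) and at day 16 (28.98 and 33.17 CPM, -0.55 ± 0.12, adjusted p = 0.000254). DAC at day 16 in WT also passed (-0.40 ± 0.12), but not without the first DAC library (adjusted p = 0.0622). Under BMN at day 16 the WT libraries read 60.3 and 59.9 CPM, above both untreated ones (0.40 ± 0.11), which did not pass in edgeR (adjusted p = 0.0732) and passed in DESeq2. In KO under BMN it rose to 154 ± 2.69 CPM at day 16 and 169.6 CPM at day 26, where the libraries read 184 and 156 CPM (0.60 ± 0.11 and 0.73 ± 0.11, adjusted p = 0.000192 and 2.65e-06). The KO call at day 5 of BMN was lost without any 1 of its 4 libraries (adjusted p = 0.0896 to 0.241), and that at day 5 of DAC without DAC replicate 2 (0.0803) or untreated replicate 1 (0.0528).

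The combination in KO cells took SLC7A11 from the lowest of the KO groups to the third highest. It stood at 47.7 and 49.8 CPM at day 5, below every other KO group (-1.07 ± 0.11, adjusted p = 1.17e-09). At day 16 it was 55.4 and 67.5 CPM (-0.73 ± 0.11, adjusted p = 1.93e-06), and at day 26 it was 150 and 151 CPM (0.56 ± 0.11, adjusted p = 0.000112). Day 26 exceeded day 5 by 1.63 ± 0.11 on the log2 scale (adjusted p = 1.07e-13). DAC alone in KO cells gave 134 ± 11.5, 72.4 ± 11.1 and 97.3 ± 6.88 CPM on the same days, with -0.49 ± 0.11 at day 16 (adjusted p = 0.000471).

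Next, KO was set against WT. In untreated cells 3 members were higher in KO and 3 lower, with 13.4% of all genes tested higher and 13.9% lower. SLC7A11 was 2.24-fold higher (1.16 ± 0.11, adjusted p = 3.72e-10), AKR1B10 2.64-fold higher (1.4003 ± 0.22, adjusted p = 4.03e-06) and TXNRD1 higher by 0.35 ± 0.05 (adjusted p = 2.53e-07). AKR1C1 was lower by a log2 value of -3.00 ± 0.48 (adjusted p = 6.94e-06), resting on 5 and 8 counts in KO against 52 and 61 in WT. AKR1C3 was lower by -1.69 ± 0.23 (adjusted p = 4.03e-07) and HMOX1 by -0.83 ± 0.12 (adjusted p = 2.06e-06). All 6 calls held without any 1 library. NQO1 (-0.14 ± 0.06, adjusted p = 0.071) and GCLM (-0.06) did not pass.

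Under treatment, averaged over the 3 days, these line differences were present in part. Under DAC 2 members were higher in KO and 5 lower (23.4% and 25.7% of all genes), under BMN 4 and 3 (21.3% and 26.8%), and under the combination 4 and 5 (23.8% and 25.6%). SLC7A11 was higher in KO by 1.36 ± 0.07, 1.62 ± 0.06 and 1.10 ± 0.07. AKR1C1 was lower (-1.67, -2.13 and -1.83), as were AKR1C3 (-1.64, -2.17 and -1.15) and HMOX1 (-0.53, -0.79 and -0.76). TXNRD1 was higher by 0.11, 0.55 and 0.43. Under DAC its days went opposite ways. KO stood at 646.9 CPM against 499.7 in WT at day 5 and at 435.4 against 406.5 at day 16. At day 26 KO was lower, at 533.5 against 594.1 CPM. The single days of these line differences were not tested. Also counted were NQO1, lower under DAC and the combination (-0.16 and -0.11), and GCLM, higher under BMN and the combination (0.14 in both). Both GCLM calls were lost in some fits without 1 library. At day 16 of the combination GCLM read 73.18 CPM in KO against 74.6 in WT. AKR1C2 was counted as lower under DAC and the combination on 0 to 3 counts per KO library. Its call under DAC was also lost in some of those fits. AKR1B10 differed by 0.66 under BMN and by 0.71 under the combination, and under DAC by 0.22, which did not pass (adjusted p = 0.243). At day 16 of the combination it stood at 0.815 CPM in KO and 0.817 in WT. The difference under the combination was lost without the KO combination day 16 replicate 2 (adjusted p = 0.0824).

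**Figure D4:**
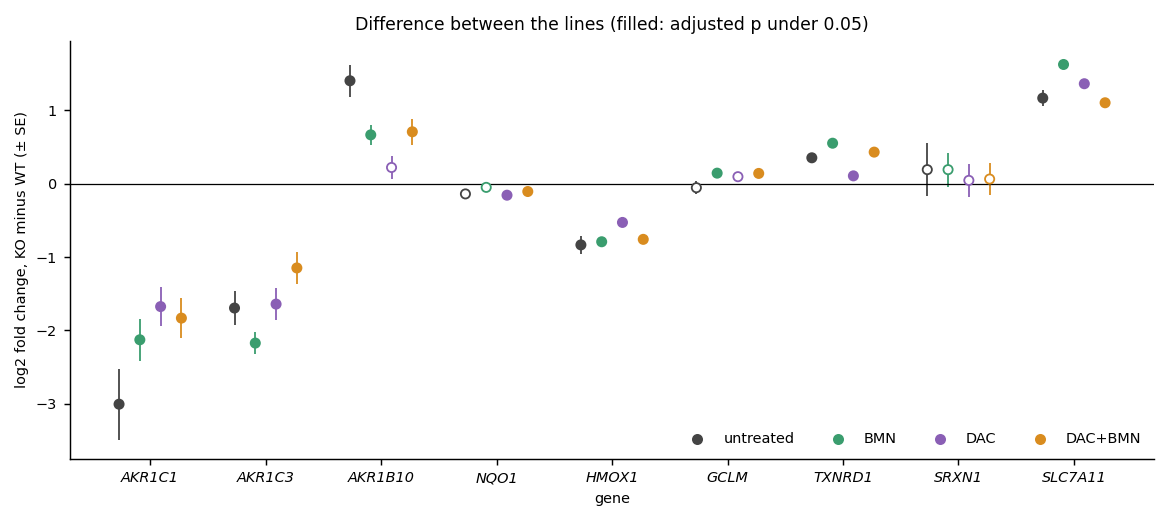
KO minus WT on the log2 scale, with bars of 1 SE, for 9 members in untreated cells and averaged over days under BMN, DAC and the combination; filled points had an adjusted p below 0.05. SLC7A11 lies above 0 in all 4 conditions, and AKR1C1, AKR1C3 and HMOX1 lie below 0 in all 4.

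The test of the difference in response itself, treated minus untreated in KO against the same in WT, passed for 2 members under DAC. AKR1B10 responded by -1.18 ± 0.26 more in KO (adjusted p = 0.00281) and TXNRD1 by -0.25 ± 0.05 (adjusted p = 0.00218), when 8.82% of all genes passed. For AKR1C3 the difference in response to DAC was 0.05 ± 0.41, and for NQO1 it was -0.02 ± 0.07. Under BMN, 0 members passed in edgeR, with 1.23% of all genes passing, and 3 had an unadjusted p under 0.05 (14.6% of all genes). DESeq2 called SLC7A11 and TXNRD1 there (1.65% of all genes), for which edgeR gave 0.46 ± 0.13 (adjusted p = 0.0743) and 0.20 ± 0.05 (adjusted p = 0.0599). Under the combination, 0 members passed in edgeR or in DESeq2, with 14.2% and 14.4% of all genes passing. There AKR1B10 (-0.69 ± 0.28, adjusted p = 0.0949) had an unadjusted p under 0.05, as did 26.3% of all genes. A mean over days can hide days that differ. At days 5, 16 and 26 of the combination SLC7A11 changed by -1.07, -0.73 and 0.56 in KO. In WT it changed by -0.41, -0.55 and -0.08. The difference in response on single days was not tested.

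The treatments can be compared with one another on matched days, without the untreated cells. Averaged over days, DAC against BMN gave 2 members higher (23.3% of all genes) and 3 lower (19.4%) in WT, and 2 higher (28.5%) and 5 lower (23%) in KO. NQO1 was higher under DAC by 0.74 ± 0.03 in WT and 0.63 ± 0.03 in KO (adjusted p = 2.4e-19 and 1.85e-17). AKR1C3 was lower under DAC by -1.75 ± 0.15 and -1.22 ± 0.22 (adjusted p = 3.59e-12 and 2.51e-05), and SLC7A11 by -0.35 ± 0.07 and -0.61 ± 0.06 (adjusted p = 6.2e-05 and 4.09e-10). At day 5 itself SLC7A11 was not lower under DAC, at 49.6 CPM against 37.7 under BMN in WT and 134 against 128 in KO, single days that were not tested. In KO, AKR1B10 (-0.71 ± 0.14) and TXNRD1 (-0.37 ± 0.03) were lower and HMOX1 (0.39 ± 0.07) higher under DAC as a mean over days. At day 5, however, AKR1B10 stood at 5.003 CPM under DAC against 4.90 under BMN, and TXNRD1 at 647 against 615. HMOX1 at day 26 stood at 10.4 CPM under DAC against 11.9 under BMN. On the other days each of the 3 went the way of its mean, and these single days were not tested either.

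The combination was also set against DAC alone, averaged over days. In each line 2 members were higher and 2 lower in the combination than under DAC, with 10.2% of all genes higher and 12.8% lower in WT and 10.9% and 11.8% in KO. HMOX1 was higher in WT (0.37 ± 0.07, adjusted p = 3.49e-05), and in KO the value was 0.14, which did not pass. In WT it stood at 19.28 CPM in the combination against 19.06 under DAC at day 5. At day 16 it read 29.01 against 17.64 CPM, and at day 26 it read 22.75 against 17.47. TXNRD1 was lower in WT (-0.13 ± 0.03, adjusted p = 0.000293) and higher in KO (0.19 ± 0.03, adjusted p = 1.45e-06). In KO its day 5 went the other way, at 610 CPM in the combination against 647 under DAC. There it read 497 against 435 CPM at day 16 and 738 against 534 at day 26. SLC7A11 was lower in KO (-0.36 ± 0.06, adjusted p = 6.17e-05), but its days went opposite ways. It stood at 48.7 CPM in the combination against 134 under DAC at day 5, 61.4 against 72.4 at day 16 and 150.6 against 97.3 at day 26. AKR1B10 in KO had a mean over days of 0.10, which did not pass, with 4.61 CPM in the combination against 5.003 under DAC at day 5, 0.815 against 1.22 at day 16 and 8.88 against 4.43 at day 26. The single days of this comparison were not tested. NQO1 was lower in WT (-0.15 ± 0.03, adjusted p = 0.000902). Whether these additions differ between the lines was not tested.

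Several members were lowest at day 16 of DAC or the combination and higher again at day 26, and adjacent days were compared after this was seen in the data. From day 5 to day 16 of DAC, 6 members fell in WT (7.28% of all genes) and 4 in KO (9.56%), while 7.93% and 8.29% of all genes rose. Over the same days of the combination, 1 member rose (13.1%) and 4 fell (15%) in WT, and 2 rose (16.8%) and 3 fell (16.7%) in KO. From day 16 to day 26 of DAC, 4 members rose in WT (11.1% of all genes rose, 8.55% fell), and 5 rose (12.2%) and 1 fell (12.4%) in KO. Under the combination 5 rose (14.3%) and 1 fell (11.4%) in WT, and 6 rose in KO (12.3% of all genes rose, 10.3% fell). Day 26 against day 5 gave 2 members higher and 1 lower in WT under DAC (12.6% and 9.14% of all genes), 2 and 1 under BMN (11.7% and 10.3%), and 1 and 2 under the combination (18% and 17.9%). In KO, 4 were lower under DAC (18.1% of all genes higher, 17.8% lower), 4 higher under BMN (8.95% higher, 9.38% lower), and 5 higher and 1 lower under the combination (21.6% and 21.1%).

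These steps were chosen after the dip was seen, and the fall and the rise of a series share the same 2 day 16 libraries. Their p-values are therefore not separate evidence for a dip. HMOX1 went the other way in the steps that passed. It rose from day 5 to day 16 of the combination by 0.59 in WT and by 0.37 in KO. From day 16 to day 26 it fell under the combination in WT (-0.35) and under DAC in KO (-0.48). SLC7A11 also rose from day 5 to day 16 of the combination in KO (0.33). All but the first of these calls were lost in some fits without 1 library. TXNRD1 made both moves in all 4 series. From day 5 to day 16 it changed by -0.30 (WT, DAC), -0.41 (WT, combination), -0.57 (KO, DAC) and -0.30 (KO, combination), and from day 16 to day 26 by 0.55, 0.52, 0.29 and 0.57, each with an SE of 0.05, and all 8 calls held without any 1 library. AKR1B10 fell from day 5 to day 16 by log2 values of -1.80 ± 0.31 (WT, combination), -2.04 ± 0.27 (KO, DAC) and -2.50 ± 0.30 (KO, combination). It then rose by 1.98 ± 0.30, 1.86 ± 0.28 and 3.45 ± 0.28, the last with an adjusted p of 9.81e-12. In WT under DAC its fall (-1.11 ± 0.26) was lost without the second day 16 library (adjusted p = 0.0617), and its value from day 16 to day 26 (0.60) did not pass. AKR1C3 fell under the combination by -1.74 ± 0.30 in WT and -2.78 ± 0.41 in KO (adjusted p = 3.13e-05 and 2e-06) and rose from day 16 to day 26 of DAC in WT by 1.32 ± 0.29 (adjusted p = 0.0011). Its other 5 steps passed, but each was lost in at least 2 of 4 fits without 1 library. Of these, the WT rise under the combination (0.98 ± 0.32) was lost without replicate 2 of either day (adjusted p = 0.313 and 0.175), and the KO rise under DAC (1.55 ± 0.48) without day 26 replicate 2 (0.58), day 16 replicate 1 (0.111) or day 16 replicate 2 (0.0628). The other 3 were lost without any 1 of their 4 libraries (0.0515 to 0.241). NQO1 rose from day 16 to day 26 in all 4 series (0.48, 0.29, 0.17 and 0.30 in the same order), and the KO step under DAC was lost without day 26 replicate 2 (adjusted p = 0.2), day 16 replicate 2 (0.156) or day 16 replicate 1 (0.0607).

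The regulators were followed beside their targets. BACH1, the repressor, was at 39.7 to 44.0 CPM in untreated WT libraries and 47.2 to 92.2 CPM in the 12 WT libraries with DAC or the combination. In KO it was at 51.6 to 56.6 CPM untreated and 62.9 to 105 CPM in those 12. It was highest at day 16, by 1.004 ± 0.09 and 1.06 ± 0.09 in WT (DAC, then the combination) and by 0.94 ± 0.09 and 0.95 ± 0.09 in KO, with an adjusted p of 4.4e-11 for DAC in WT. At day 26 the values were 0.45, 0.44, 0.47 and 0.24, the last of them lost without untreated replicate 2 (adjusted p = 0.265), combination replicate 1 (0.16) or combination replicate 2 (0.0765), and with DESeq2 (0.0509). Under BMN it differed from untreated cells by -0.18 to 0.12, without passing. In untreated cells it was 0.37 ± 0.09 higher in KO (adjusted p = 0.00223), a call lost without the first untreated KO library (adjusted p = 0.0516).

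NFE2L2, which encodes NRF2, moved by at most 0.39 on the log2 scale against untreated cells. It was lower at days 5 and 16 of DAC (-0.24 ± 0.06 and -0.26 ± 0.06) and of the combination (-0.30 ± 0.06 and -0.33 ± 0.06) in WT. In KO the combination gave -0.39 ± 0.06 at day 5 and 0.38 ± 0.06 at day 26, and BMN gave 0.28 ± 0.06 at day 26. In untreated cells the 2 lines had 134 CPM each. Of the exon bases of NFE2L2, 18.6% overlap another gene model on the same strand. KEAP1 in treated WT cells differed from untreated ones by -0.16 to 0.15, without passing, and all WT libraries lay between 65.1 and 91.4 CPM. In KO it was lower under DAC at day 26 (-0.40 ± 0.09) and under BMN at day 16 (-0.47 ± 0.09). MAFF, a small MAF partner, was higher at day 16 of DAC (2.14 ± 0.14 in WT, 1.07 ± 0.12 in KO) and of the combination (3.39 ± 0.14 and 1.53 ± 0.12). These are mRNA levels, and the amount and location of the NRF2 and BACH1 proteins were not measured here.

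**Figure D5:**
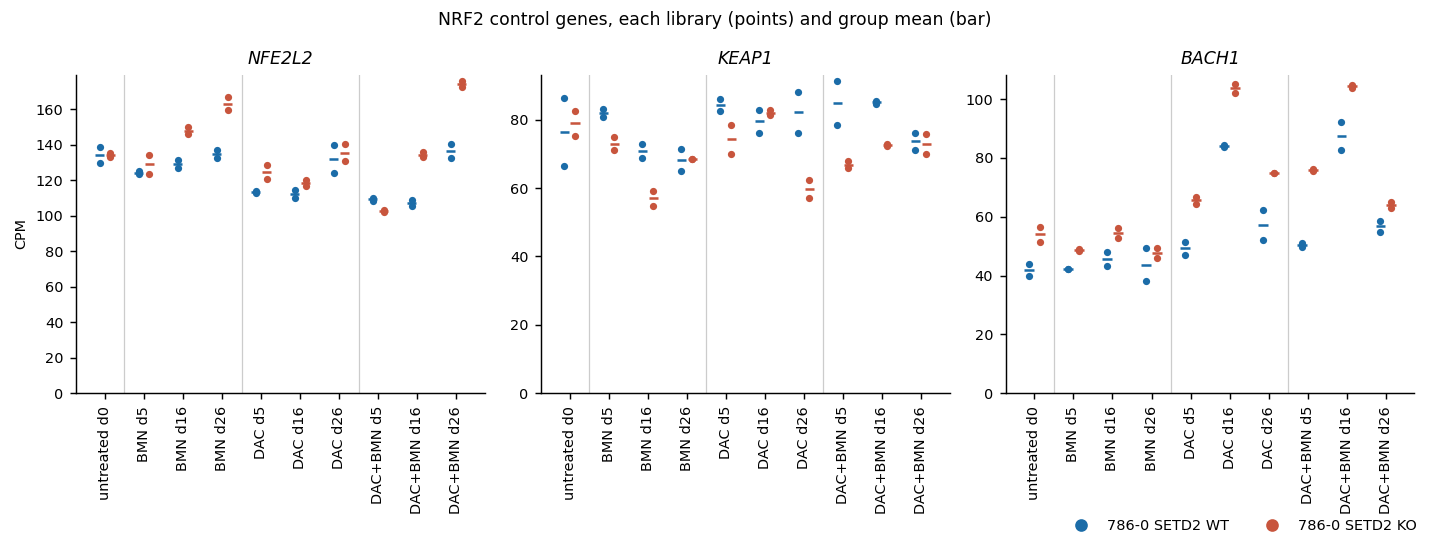
CPM of NFE2L2, KEAP1 and BACH1 (linear axes from 0) in each of the 40 libraries, by treatment and day, with WT and KO in separate colours. BACH1 reaches 82.8 to 105 CPM at day 16 of DAC and the combination, against 39.7 to 56.6 CPM in untreated cells.

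A further 53 genes described as NRF2 targets, of which 48 were tested, were counted beside the members. In untreated cells 8 were higher and 19 lower in KO (13.4% and 13.9% of all genes). Among the lower were GSTM3 (-2.61 ± 0.13), a glutathione transferase, CYP4F11 (-1.80 ± 0.18), a fatty acid hydroxylase, PTGR1 (-1.08 ± 0.08), which reduces leukotrienes and enones, BLVRB (-1.02 ± 0.12), the biliverdin reductase, and SQSTM1 (-0.55 ± 0.09), the autophagy receptor that binds KEAP1. At day 16 the lower outnumbered the higher in all 4 series: 21 to 8 under DAC and 25 to 8 under the combination in WT, 21 to 11 and 25 to 9 in KO. Of all genes, 14.9% were lower and 18.6% higher under DAC and 20.1% and 22.8% under the combination in WT, and 17.8% and 19.9%, then 19.5% and 23.1%, in KO. The medians of the list were -0.15, -0.29, -0.18 and -0.29 on the log2 scale, against 0.03, 0.05, 0.04 and 0.09 for all genes. Within the list, of the 18 tested genes of glutathione and thioredoxin 10 and 11 were lower in WT (DAC, then the combination) and 10 and 11 in KO. Of the 6 genes of NADPH supply 3 and 4 were lower in WT and 2 and 4 in KO. Of the 14 genes of detoxification, haem and iron 4 and 5 were lower in WT and 5 and 6 in KO, against 3 and 3 and 4 and 5 higher. Of the remaining 10, 4 and 5 were lower in WT and 4 and 4 in KO. Under BMN at day 26, 23 of the 48 were lower in WT (11% of all genes), and 23 were lower (17.5%) and 6 higher (15.6%) in KO.

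Single genes of that list went opposite ways at day 16. GSR, the glutathione reductase, fell from 119 CPM in untreated WT cells to 58.1 under DAC and 41.5 under the combination (-1.03 ± 0.07 and -1.51 in log2), and changed by -1.10 and -0.99 in KO. TKT, the transketolase of the pentose phosphate pathway, changed by -0.79 and -1.14 in WT and by -0.72 and -1.001 in KO. EPHX1, the microsomal epoxide hydrolase, changed by -0.79 and -1.88 in WT and by -0.97 and -1.73 in KO. OSGIN1, an oxidative stress-induced growth inhibitor, rose by 1.14 and 1.85 in WT and by 1.503 and 1.75 in KO. All of these calls held without any 1 library. Among 11 tested aldo-keto reductases outside the set, AKR1A1 (0.25) and AKR1B1 (0.20) were higher in untreated KO cells.

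Because SLC7A11 is also a target of ATF4, the factor of the amino acid response, 15 other genes of that response were counted, ATF4 itself among them. In untreated cells 9 were higher (13.4% of all genes) and 2 lower (13.9%) in KO (median 0.47), among them CHAC1 (1.48 ± 0.21) and DDIT4 (1.24 ± 0.07), while SLC7A11 was also higher. At day 5 of the combination in KO, where SLC7A11 was at its lowest, 10 were lower (22.2% of all genes) and 2 higher (27.1%, median -1.20), with CBS at -2.88 ± 0.29, DDIT4 at -2.50 ± 0.08 and TRIB3 at -1.94 ± 0.11. From day 5 to day 26 of the combination in KO, 9 rose (21.6% of all genes) and 3 fell (21.1%, median 0.76). At day 26 itself 7 were lower than in untreated KO cells (14.3% of all genes), while SLC7A11 was higher. The part of ATF4 in the level of SLC7A11 was not tested.

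The likeness of expression patterns was described by Pearson's r over the 20 group means on the log2 scale, among 11562 genes with a symbol and at least 5 CPM on average. The groups of a line share that line, and no p is given. Among the members, AKR1C1 and AKR1C2 had r = 0.81, TXNRD1 and SLC7A11 0.78, AKR1B10 and TXNRD1 0.76, and AKR1C1 and HMOX1 0.76. SLC7A11 ran opposite to HMOX1 and to AKR1C1 (both r = -0.80). Outside the set, the genes most like AKR1C3 were CD24P4 (0.95), ACP6 (0.95) and GLCCI1 (0.94). For NQO1 they were SLC8A1 (0.94), CGB5 (0.94) and ANK1 (0.92), for TXNRD1 ODC1 (0.93), STARD7 (0.92) and PPM1G (0.92), and for SLC7A11 EXPH5 (0.96), BMPR1A (0.94) and ECPAS (0.94). The nearest to AKR1B10 was AP1S3 (0.89), to HMOX1 HOXB2 (0.91), to GCLM DDX18 (0.90), to AKR1C1 APBB1 (0.96), to AKR1C2 PTGER2 (0.91) and to SRXN1 TSPO (0.94). CD24P4 and CGB5 have near-identical relatives, so their reads are uncertain.

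The libraries were checked against their labels. SETD2 mRNA was at 149 and 130 CPM in untreated WT cells and 141 and 113 in untreated KO cells (-0.13 ± 0.07, adjusted p = 0.198), so its level did not separate the lines, and the labels do not say which part of the gene was altered. All 10 genes of a list for renal carcinoma lines were present in every library, PAX8 at 209.9 to 481 CPM, with a summed level of 5004 to 7184 CPM in WT and 4756 to 6891 in KO. Of 10 markers of other cell types 2 passed the filter. Their summed level was 0.475 to 9.56 CPM in WT and 4.33 to 25.3 in KO, most of it the epithelial gene EPCAM at up to 24.5 CPM. PECAM1 reached 2.87 CPM, and HBB and UMOD were at 0 in all 40 libraries. EPCAM was higher in untreated KO cells (7.45 and 5.95 CPM) than in untreated WT cells (0.958 and 0.932), as SLC7A11 was, and higher in the WT libraries with DAC or the combination (2.40 to 9.04 CPM) than in those with BMN (0.465 to 1.23), as NQO1 was. Its part in these results was not tested.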

How the data were processed

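RNA-seq of 40 libraries (20 groups of 2) was read as the raw gene counts that the authors deposited. Per the file headers they came from featureCounts 1.5.0-p1 with Ensembl 104 on GRCh38, a minimum mapping quality of 20 and strand setting 1, and a read on exons shared by 2 genes is not assigned by that program unless asked. Per the labels, the kit was KAPA RNA HyperPrep, and the alignments carry the name STAR. The submitters' processing notes also name FastQC, Trimmomatic and Partek. The header names 76 alignments, of which 40 are used here. No 2 libraries held identical counts.

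Genes were kept by filterByExpr (minimum count 10, minimum total 15), scaled by TMM and fitted in edgeR 4.0.16 (R 4.3.3) with 1 mean per group over all 40 libraries (20 residual degrees of freedom, common coefficient of variation 0.0718), in 43 comparisons adjusted by Benjamini-Hochberg. Of these, 8 between adjacent days were added after seeing the data. CPM are per 1000000 TMM-scaled counts, and 3 counts are 0.133 to 0.171 CPM, a limit for counting error. The fit was also run on simulated data in which every gene had the same dispersion. That run does not bear on genes with few counts or unlike replicates, such as AKR1C1, AKR1C2 and SRXN1. Alternatives were RLE scaling, no filter, DESeq2 1.42.0, the libraries of 1 line alone, a replicate block, raw library totals, exon bases not shared with another gene, and leaving out each library. The last kept the dispersion trend of all 40 libraries and estimated the quasi-likelihood dispersions anew, and a group left with 1 library is assumed to vary like the others.

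Named were all members, SETD2, NFE2L2, KEAP1 and BACH1, up to 4 genes per other list and comparison with the largest change that passed, and the 3 genes most like each member. The genes printed are a choice among these. The members and lists were chosen with earlier results of these data known. Sequences are from RefSeq (promoters) and GENCODE 29 (coding).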

Additional observations from a re-analysis of the deposited data

Results flagged for a closer look

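The response to DAC, treated minus untreated and averaged over days 5, 16 and 26, differed between KO and WT for 2 of the 10 members by the interaction test. AKR1B10 differed by -1.1808 on the log2 scale, with KO falling from 9.24 CPM untreated to 1.22 at day 16 and WT from 3.49 to 1.73. TXNRD1 differed by -0.24593. At days 5, 16 and 26 of DAC it stood at 0.08, -0.49 and -0.20 against untreated cells in KO and at 0.06, -0.24 and 0.31 in WT, on the log2 scale. For AKR1B10 the untreated KO level was itself 2.64-fold above WT.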

How the results depend on the processing

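Of 430 member results, 192 passed, and 138 of these passed under every alternative and without any 1 library; no result that passed turned its direction. RLE scaling moved a called member value by at most 0.052 on the log2 scale, and DESeq2 by at most 0.15. Genes passing under BMN in WT at day 5 numbered 42, but 64 with no filter, 70 with DESeq2, 9 with WT libraries alone and 15 to 89 without 1 library. At day 16 they numbered 154, but 1348, 986, 13 and 7 to 3583, the last without untreated WT replicate 1. The 0 members passing there became 1 with no filter, 2 with DESeq2 and 0 to 2 without 1 library. Of the 154, 37.7% were higher, against 26.1% under RLE, 56.0% with no filter and 15.4% with WT libraries alone. At day 26, 5188 genes became 2097 (without untreated WT replicate 2) to 6138 without 1 library, and 3 members 1 to 4. The 5 members under the combination at day 26 in WT became 3 with WT libraries alone and 3 to 5 without 1 library. Under BMN in KO at day 5, 2639 genes became 4374 with KO libraries alone and 783 to 1607 without 1 library, and 3 members 0 to 2. At day 16, 5749 genes became 2803 to 4435.

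Without 1 library, day 26 against day 5 gave 2965 to 4974 genes for DAC in WT (4898 with all), 2141 to 5181 for BMN in WT (4963) and 2247 to 2722 for BMN in KO (4130). Members were 1 to 3 for BMN in WT (3), 0 to 3 for the combination in WT (3) and 2 to 3 for DAC in KO (4). Day 16 against day 5 gave 2175 to 2371 genes for DAC in WT (3426), 4204 to 4982 for the combination in WT (6328) and 2662 to 3137 for DAC in KO (4022). Members were 3 to 5 for DAC in WT (6) and 3 to 5 for the combination in KO (5). Day 26 against day 16 gave 2769 to 4208 genes for DAC in WT (4427) and 3066 to 4279 for DAC in KO (5547), with 2 to 4 members for DAC in KO (6). There 49.7% of calls were higher, against 37.5% with no filter.

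The difference in response to DAC passed for 1988 genes and for 1278 to 3238 without 1 library, and that to the combination for 3200 and 1806 to 4731, with 0 and 0 to 1 members. The difference in response to BMN passed for 276 genes, but 751 with no filter and 83 to 2598 without 1 library (untreated WT replicates 1 and 2). Its 0 members became 1 under RLE, 1 with no filter, 2 with DESeq2 and 0 to 2 without 1 library. The share of higher calls was 10.1%, against 24.1% with no filter and 25.3% with DESeq2. The cause of these shifts was not tested.

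Replicate numbers did not pair the libraries: over 190 pairs of groups the correlation of same-numbered deviations had a median of -0.0004 and passed 0.1 in 10. With the replicate block, counts of calls were 0.952 to 1.25 times those without it, and 427 of 430 member results kept their direction and their side of the threshold. Called member values moved by at most 0.0265 on the log2 scale. SRXN1 at day 26 against day 16 of DAC in KO passed with the block (adjusted p = 0.0459) and not without it (adjusted p = 0.0558). Raw library totals changed group levels by factors of 0.942 to 1.05. Depth limits AKR1C2, AKR1C1 in KO and AKR1C3 at day 16 of DAC and the combination in KO.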
